A study of Mus musculus with 4 samples.

Results

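The proteasome genes of stimulated mouse T cells are described here, with the immunoproteasome as the main contrast. The members were all genes on chromosomes 1 to 19 whose symbol begins with Psm, a letter from a to g and a digit, pseudogenes left out, which gave 49 of the 49671 genes in the files. They comprised 8 alpha subunits and 11 beta subunits of the 20S core, 6 ATPases and 11 other subunits of the 19S particle, 6 activator and inhibitor genes, 6 assembly chaperones, and Psmc3ip, a meiotic recombination factor that matches by symbol and is not a subunit. RNA came from splenic CD3+ T cells of 4 female F1 mus x cast mice, with 1 library per mouse and 1 group in all. Every mouse had a C57BL/6 mother that was heterozygous for a deletion of Xist and a castaneus father, and the age of the mice is not given in the labels. The T cells, taken from enrichment columns, spent 48 hours with plate-bound anti-CD3 (1 µg/ml) and soluble anti-CD28 (10 µg/ml), antibodies that mimic antigen and costimulation, while 2.5 µM IMD-0354, an inhibitor of the NF-κB-activating kinase IKKβ, was present. Cells without stimulation or without the inhibitor are not among the 4 samples, so an effect of either was not tested.

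The proteasome degrades proteins tagged with ubiquitin. Its 20S core is a barrel of outer alpha rings and inner beta rings, and 3 beta subunits of each inner ring cut peptide bonds. The 19S particle caps the core, binds and unfolds the tagged protein with a ring of ATPases and removes the ubiquitin. In lymphocytes and in cells exposed to interferon, newly built cores carry the immuno subunits encoded by Psmb8, Psmb9 and Psmb10 in place of those encoded by Psmb5, Psmb6 and Psmb7, which changes the peptides offered to MHC class I molecules.

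Levels are given in RPKM of both alleles together, which is reads per kilobase of a gene's exons, scaled to the depth of the library, and the allelic counts are reads assigned to the Castaneus or the C57BL/6 allele. Allelic reads numbered 30539711 to 34992012 per replicate. T cell markers summed to 480.1 to 524.9 RPKM with 10 of 10 above 1 RPKM in the mean, against 4.50 to 10.6 RPKM for 5 B cell markers, 36.0 to 94.1 RPKM for 5 myeloid markers, 3.02 to 3.63 RPKM for 4 dendritic cell markers, 0.372 to 0.617 RPKM for 3 NK cell markers, 0.823 to 4.88 RPKM for 3 erythroid markers and 2.98 to 3.87 RPKM for 2 stromal markers. Of the myeloid sum, Lyz2 alone made 41.3 RPKM in the mean, and no marker of any list was at 0 in the mean.

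Of the 49 proteasome genes, 46 averaged 1 RPKM or more and 20 allelic reads or more. The median of these 46 was 19 RPKM, beside 6.76 RPKM for the median of the 11070 autosomal genes at or above 1 RPKM. Their coefficient of variation over the 4 mice was 7.68% in the median, beside 8.63% for the 3835 autosomal genes between 10 and 80 RPKM. The other 3 genes were at or near 0. Psmb11, the catalytic subunit of the thymoproteasome of thymic epithelium, was listed at 0 in all 4 replicates. Psma8, the alpha subunit of the testis proteasome, had 0, 0.136, 0 and 0.0513 RPKM in replicates 1 to 4, and Psme2b had 0, 0, 0 and 0.0691 RPKM.

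**Figure D1:**
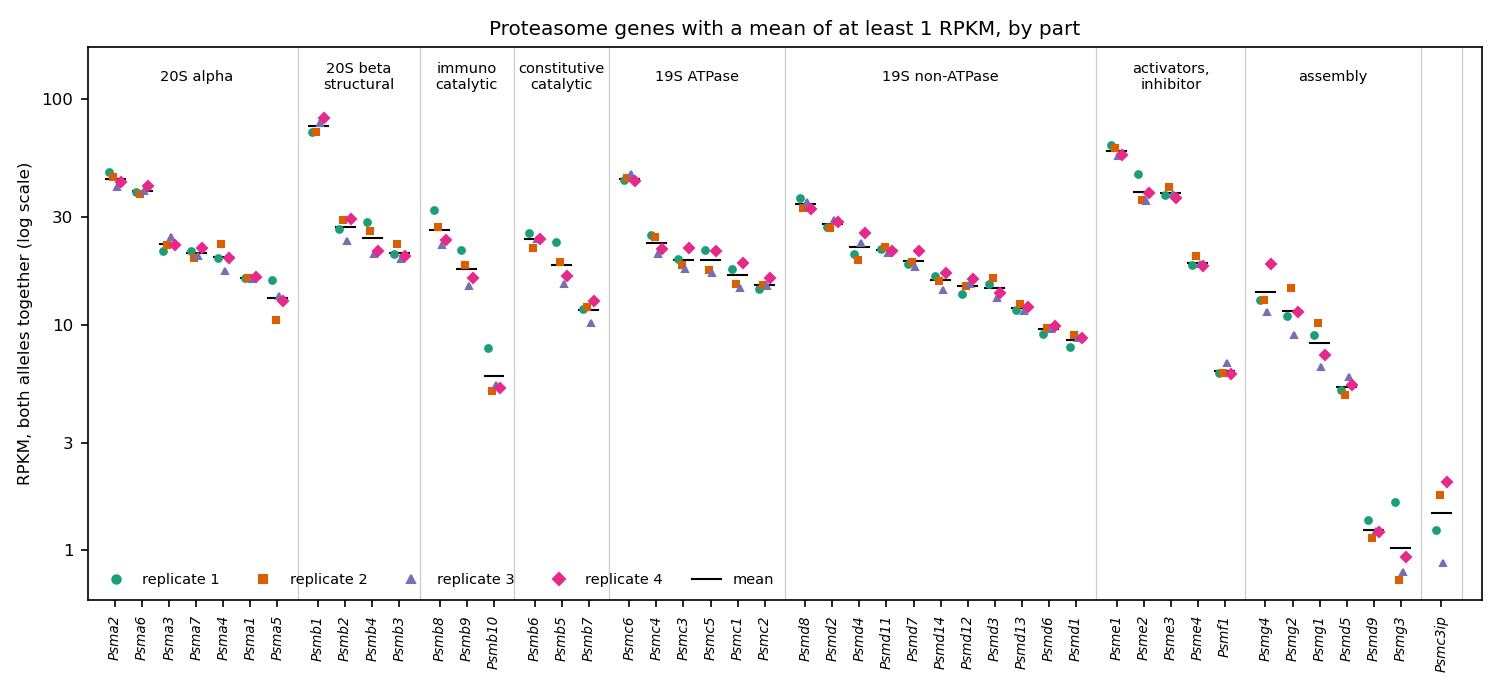
RPKM of the 46 proteasome genes that averaged 1 RPKM or more, on a log axis, with a point per replicate and a bar at the mean, grouped by the place of the gene product in the proteasome. Levels run from a mean of 1.03 RPKM for Psmg3 to 75.7 RPKM for Psmb1, and 29 of the 46 genes have a coefficient of variation under 10%.

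The immuno catalytic subunits were expressed at about the same summed level as the constitutive ones by deposited RPKM, which depends on the exon length of each gene. Psmb8, Psmb9 and Psmb10 together made 49.99 ± 8.44 RPKM, and Psmb5, Psmb6 and Psmb7 together 54.0 ± 4.68 RPKM (SD, n = 4). The immuno subunits thus held 50.5%, 49.0%, 46.4% and 45.8% of the catalytic RPKM in replicates 1 to 4. The 3 positions of the ring differed in direction. Psmb8 was above its counterpart, while Psmb9 and Psmb10 were below theirs.

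Psmb8, the immuno subunit of the chymotrypsin-like position (chr17:34197721-34201454, GRCm38, the mm10 build), had 32.2, 27.2, 22.6 and 23.6 RPKM in replicates 1 to 4. Psmb5, its constitutive counterpart (chr14:54614119-54618022), had 23.2, 18.97, 15.2 and 16.4 RPKM. The ranges overlap between mice, but within each library Psmb8 was the higher of the pair, by 1.44-fold in the mean (log2 ratio 0.52 ± 0.04, SD, n = 4). Psmb8 and Psmb5 had the same order across the mice, and their ratio stayed between 1.39 and 1.49.

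At the caspase-like position, Psmb9 (chr17:34181987-34187764) had 21.5, 18.4, 14.8 and 16.1 RPKM and Psmb6 (chr11:70525367-70527858) 25.6, 21.9, 24.1 and 24.0 RPKM. By deposited RPKM the highest value of Psmb9 was below the lowest of Psmb6, and the log2 ratio was -0.45 ± 0.23 (SD, n = 4). At the trypsin-like position, Psmb10 (chr8:105935735-105938444) had 7.88, 5.07, 5.41 and 5.23 RPKM and Psmb7 (chr2:38588036-38644087) 11.8, 11.9, 10.1 and 12.7 RPKM, a log2 ratio of -1.0 ± 0.33. Psmb10 was the lowest of the 6 catalytic genes in every replicate. Each of the 3 ratios had the same direction in 4 of 4 replicates, and each gave a two-sided p = 0.13 in an exact permutation test that flips signs (adjusted p = 0.13 over the 3 pairs), the smallest value that 4 replicates allow.

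**Figure D2:**
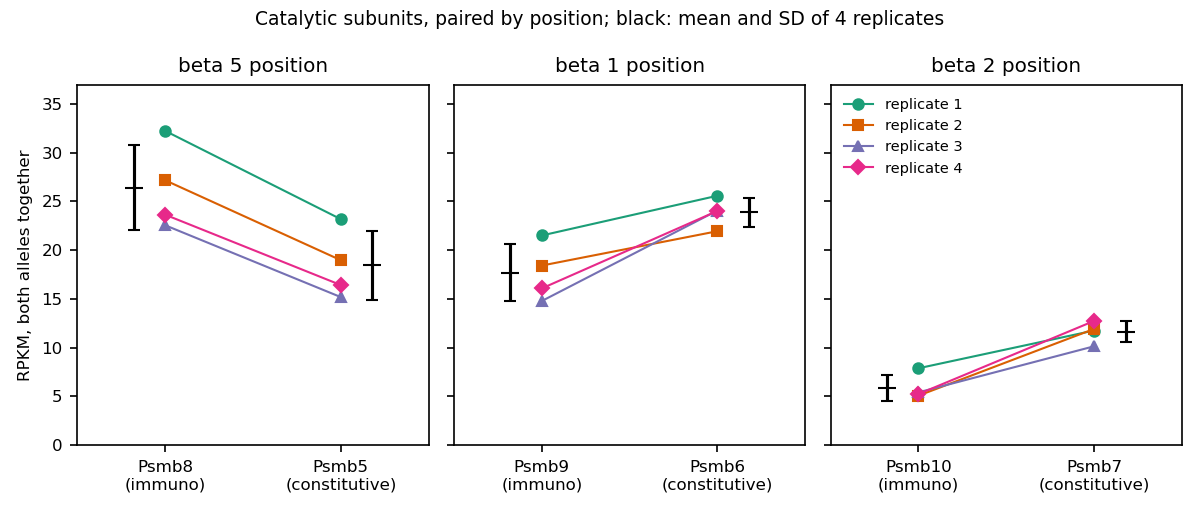
RPKM of each immuno catalytic subunit (left) and its constitutive counterpart (right) at the 3 catalytic positions, with lines that join the values of a replicate and black bars for mean and SD of 4 replicates. All 4 lines go down from Psmb8 to Psmb5, and all 4 go up from Psmb9 to Psmb6 and from Psmb10 to Psmb7.

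The length behind the RPKM moved the size of these ratios and not their direction. RPKM times the summed length of all annotated exons, retained introns of noncoding transcripts included, gave whole reads for 84.0% to 85.4% of genes (within 0.02 of a whole number, where chance gives 4%), so long noncoding isoforms lower the RPKM of a gene. For Psmb8 that annotation gave no whole reads, and 1824 and 2736 bases were the shortest lengths that did. With the principal transcript as the length of all 6 genes, a choice made after seeing the data, Psmb8 was 1.66-fold or, with the longer length, 2.49-fold the level of Psmb5. Psmb9 then stood at 0.846 of Psmb6 and Psmb10 at 0.220 of Psmb7, beside 0.734 and 0.50 as deposited. The ratio of Psmb9 to Psmb6 was then 0.970, 0.968, 0.708 and 0.772 in replicates 1 to 4, so the genes were nearly equal in replicates 1 and 2. The summed levels of the immuno and the constitutive genes were not recomputed with principal transcript lengths. On that scale Psmb6 had the highest level of the 6 genes, 56.1 ± 3.51 RPKM, and Psmb9 came next with 47.9 ± 7.99 (SD, n = 4). In allelic reads per kilobase of exon, Psmb10 stood at 0.164 of Psmb7 and Psmb9 at 0.893 of Psmb6. Those values also carry the share of reads that could be assigned to an allele, which was 22.3% for Psmb10, 69.2% for Psmb7, 73.9% for Psmb9 and 60.5% for Psmb6, so they are not ratios of level.

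The promoters of Psmb10, Psmb5 and Psmb6 are shown because, by deposited RPKM, Psmb10 is the lowest of the catalytic genes and Psmb5 and Psmb6 are the 2 highest constitutive ones. They come from RefSeq for GRCm38.p6 and hold up to 250 bases before the RefSeq start, each 5′ to 3′ on the strand of the gene and without bases that GENCODE M21 places inside a transcript. Capitals mark the antioxidant response element TGANNNNGC, the motif bound by NRF1 and NRF2, which are known to raise the transcription of many proteasome genes. Psmb10 lies at chr8:105938445-105938642 on the minus strand, Psmb5 at chr14:54618023-54618245 on the minus strand and Psmb6 at chr11:70525107-70525356 on the plus strand.
Psmb10: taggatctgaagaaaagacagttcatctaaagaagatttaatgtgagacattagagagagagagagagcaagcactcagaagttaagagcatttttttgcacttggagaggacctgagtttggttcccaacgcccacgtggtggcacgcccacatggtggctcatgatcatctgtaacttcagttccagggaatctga
Psmb5: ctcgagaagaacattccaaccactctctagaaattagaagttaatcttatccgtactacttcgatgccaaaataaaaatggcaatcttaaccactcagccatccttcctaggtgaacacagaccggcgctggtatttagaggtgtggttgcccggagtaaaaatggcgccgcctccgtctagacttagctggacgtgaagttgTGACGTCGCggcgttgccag
Psmb6: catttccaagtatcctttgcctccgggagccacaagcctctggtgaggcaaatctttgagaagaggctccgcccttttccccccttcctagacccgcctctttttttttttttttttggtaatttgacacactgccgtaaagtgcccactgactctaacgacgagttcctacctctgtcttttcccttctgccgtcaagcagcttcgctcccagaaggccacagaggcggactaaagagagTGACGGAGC
The motif begins 47 bases before the RefSeq start of Psmb5 and 9 bases before that of Psmb6, and the Psmb10 stretch has no match to it or to the other motifs searched.

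Over 40 proteasome genes with a window of 250 bases, read on both strands, 14 (35%) held TGANNNNGC, beside 35.4% of 15684 autosomal genes, so the motif was as frequent as elsewhere. The catalytic genes among the 14 were Psmb5, Psmb6, Psmb9 and Psmb11, so the immuno gene Psmb9 also held it. The windows of Psmb8 and Psmb9 lie inside annotated transcripts and are not shown above. The interferon-stimulated response element core was in 3 windows (7.5%, beside 3.05% of all), those of Psmb3, Psmd4 and Psmd9. The interferon-gamma activated site TTCNNNGAA was in 2 windows, those of Psmb8 and Psmg1 (5%, beside 6.58%), of which the Psmb8 window lies inside an annotated transcript, the NF-κB motif in 10 (25%, beside 19.7%) and CCAAT in 12 (30%, beside 35.5%). These are matches of letters only, and a window without a match says nothing of sites outside it.

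The 3 immuno subunits were each highest in replicate 1. They stood above the mean of their gene there by 0.30 on the log2 scale in the median, and at 0.06, -0.21 and -0.15 in replicates 2, 3 and 4. Psmb8 and Psmb9 were lowest in replicate 3, while Psmb10 was lowest in replicate 2, at -0.19 on the log2 scale. Psmb5 was also highest in replicate 1 (0.35 on the log2 scale above its mean), as were Psmb4 and Psme2. The 46 proteasome genes at large were highest in replicate 1 in 15 cases, in replicate 2 in 10, in replicate 3 in 5 and in replicate 4 in 16. Of all autosomal genes with at least 1 RPKM, 19.8% were highest in replicate 1 and 42.0% in replicate 2. The summed B cell markers, 10.6, 6.49, 4.50 and 5.21 RPKM in replicates 1 to 4, were also highest in replicate 1, and their part in the levels of the immuno subunits was not tested. The largest of them was Cd79a with 2.37 RPKM in the mean, and 3 of the 5 exceeded 1 RPKM. In bulk RNA more cells of a type and more RNA per cell cannot be told apart. Without replicate 1, the log2 ratios were 0.54 for Psmb8 over Psmb5, -0.51 for Psmb9 over Psmb6 and -1.14 for Psmb10 over Psmb7.

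**Figure D3:**
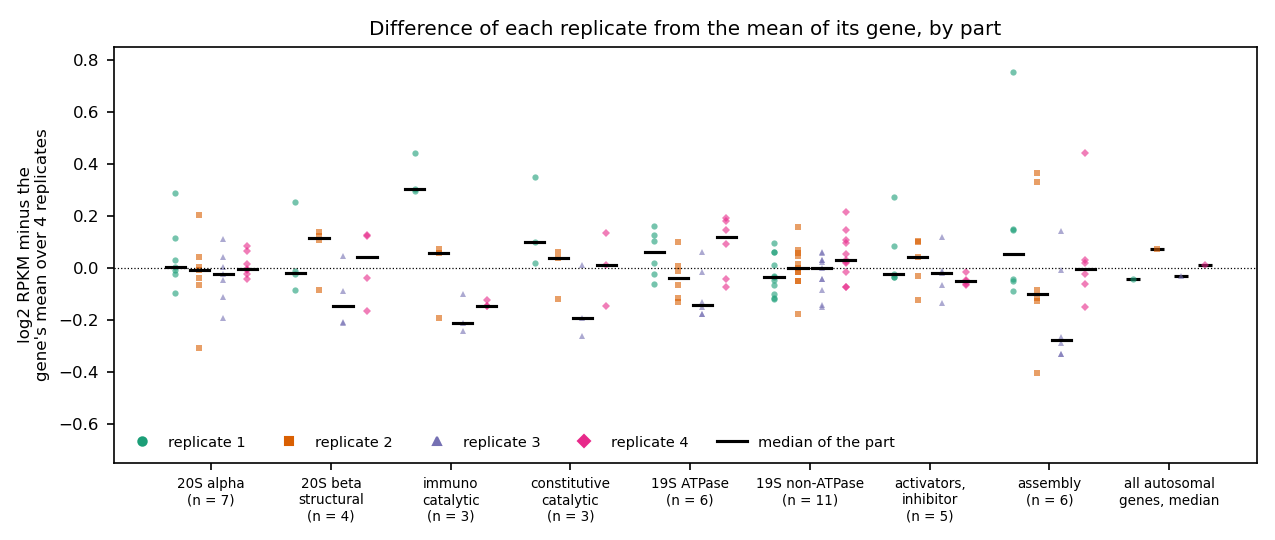
Log2 RPKM of each replicate minus the mean of its gene, with a point per gene, a bar at the median of each group of genes, and the medians of all autosomal genes at the right. The immuno catalytic genes stand at 0.30 in replicate 1 and at -0.21 in replicate 3, while the alpha ring stays near 0 in all 4 replicates.

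In the rest of the 20S core, the alpha subunits spanned a 3.36-fold range of deposited RPKM and the structural beta subunits a 3.65-fold range. Both ranges carry the exon length of each gene, which is 2300 bases for Psmb3, beside 766 for its principal transcript. For Psma2 that length was not resolved, and the order of these genes on principal transcript lengths was not tested. The 7 expressed alpha subunits, which form the gate of the barrel, had a median of 20.7 RPKM. Psma2, the highest, had 47.6, 45.3, 40.8 and 42.7 RPKM in replicates 1 to 4. Psma5, the lowest, had 15.8, 10.5, 13.4 and 12.8 RPKM, and its range did not meet that of Psma2. The steadiest member of all 46 was Psma1 with 16.1, 16.2, 15.9 and 16.3 RPKM, a coefficient of variation of 1.11%. The 4 structural beta subunits, which hold the inner rings together and do not cut, had a median of 25.6 RPKM. Psmb1 had 71.2, 71.1, 78.0 and 82.4 RPKM and Psmb3 20.6, 22.8, 19.5 and 20.2 RPKM. By deposited RPKM Psmb1 was the highest proteasome gene in every replicate, although the exon length behind its RPKM was not resolved. Psmb2 averaged 27.2 ± 2.80 and Psmb4 24.1 ± 3.79 RPKM (SD, n = 4).

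By deposited RPKM the 19S particle was close to the core in level. Its 6 ATPases, which unfold the substrate and thread it into the barrel, had a median of 19.3 RPKM. Psmc6 had 43.6, 44.6, 46.3 and 43.1 RPKM in replicates 1 to 4, and Psmc2 14.4, 14.9, 14.9 and 16.0 RPKM. By deposited RPKM Psmc6 was 2.95 times Psmc2 in the mean, and the other ATPases lay between 16.5 RPKM (Psmc1) and 22.9 RPKM (Psmc4) in the mean. The summed exons behind the RPKM of Psmc2 are 5031 bases, beside 1785 for its principal transcript. For Psmc6 the length was not resolved, so the order of these genes on principal transcript lengths was not tested. The 11 other subunits had a median of 15.8 RPKM. Psmd8, a subunit of the lid, had 36.4, 32.9, 34.9 and 32.4 RPKM, and Psmd1, a large scaffold subunit of the base, 7.93, 9.01, 8.72 and 8.73 RPKM. Psmd2, the scaffold on which ubiquitin receptors dock, averaged 27.8 ± 0.998 RPKM, Psmd4, a ubiquitin receptor, 22.1 ± 2.71 RPKM, and Psmd14, the deubiquitinase of the lid, 15.8 ± 1.21 RPKM (SD, n = 4). Of these subunits 10 of 11 had a coefficient of variation under 10%, with a median of 5.43%.

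The interferon-inducible activator was the most abundant cap gene by RPKM. Psme1, the alpha subunit of the ring that opens the core without ATP, had 62.3, 60.4, 56.1 and 56.3 RPKM in replicates 1 to 4, and its partner Psme2 had 46.7, 35.5, 35.2 and 38.2 RPKM. Psme3, which forms a related ring in the nucleus, had 37.6, 40.9, 37.9 and 36.5 RPKM. Psme1 exceeded both other genes in every replicate by deposited RPKM, while Psme2 and Psme3 overlap. The summed exons behind the RPKM are 2209 bases for Psme1, 1764 for Psme2 and 2949 for Psme3. Their principal transcripts have 1112, 962 and 2664 bases, and the order of these genes on those lengths was not tested. Psme4, a large single-chain activator, had 18.4, 20.2, 18.6 and 18.2 RPKM, and Psmf1, an inhibitor of the core in the test tube, 6.09, 6.11, 6.79 and 6.02 RPKM.

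By deposited RPKM, assembly chaperones were the lowest of these groups and varied most between mice. These factors help to build the core or the base and leave the finished particle. Their median was 6.79 RPKM with a median coefficient of variation of 20.2%. Psmg4 had 12.8, 12.9, 11.4 and 18.6 RPKM in replicates 1 to 4, and its partner Psmg3 1.64, 0.736, 0.798 and 0.933 RPKM, which rest on 203 to 544 reads. Psmg4 was highest in replicate 4 and Psmg3 in replicate 1. Psmg3 had the largest coefficient of variation of all members, 40.8%. It was followed by Psmc3ip, at 34.6%, with 1.23, 1.76, 0.879 and 2.00 RPKM. Psmg1 and Psmg2, the other chaperone pair of the alpha ring, averaged 8.27 ± 1.68 and 11.5 ± 2.31 RPKM, and the base chaperones Psmd5 and Psmd9 5.31 ± 0.419 and 1.23 ± 0.0943 RPKM (SD, n = 4).

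Genes that work with the proteasome were listed apart from the members, and 25 of 26 were found. They ranged from 4.98 RPKM for Pomp, the maturation factor of the core, to 1631 RPKM for B2m, the light chain of MHC class I molecules, with a median of 19.9 RPKM. Of the 25, 9 were highest in replicate 1, 5 in replicate 2, 4 in replicate 3 and 7 in replicate 4. For all autosomal genes with at least 1 RPKM these shares were 19.8%, 42.0%, 17.4% and 20.7%. The peptide transporter gene Tap1 had 46.7, 41.1, 37.1 and 38.6 RPKM in replicates 1 to 4, and the transcription factor gene Irf1, a known activator of Psmb9 and Tap1, had 39.0, 31.6, 24.3 and 30.6 RPKM. Both were highest in replicate 1 and lowest in replicate 3, like Psmb8 and Psmb9. B2m was lowest in replicate 1, with 1416 RPKM there and 1602, 1714 and 1791 RPKM in replicates 2 to 4. Nfe2l1, which encodes NRF1, averaged 79.8 ± 4.27 RPKM and Nfe2l2, which encodes NRF2, 25.7 ± 3.37 RPKM (SD, n = 4).

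Most proteasome genes were read about equally from both alleles. Of 46 genes tested, 7 were higher from Castaneus and 3 from C57BL/6 (edgeR's quasi-likelihood test, FDR 5%), which is 21.7%, beside 28.1% of 10268 autosomal genes tested. By direction, edgeR called 12.4% of autosomal genes higher from Castaneus and 15.6% from C57BL/6. Without replicate 3 or 4 the proteasome genes higher from Castaneus numbered 3 and 4, beside 990 and 913 of the 10268 autosomal genes. DESeq2 called 11 proteasome genes higher from Castaneus and 6 from C57BL/6, beside 1930 and 1883 of the autosomal genes. The Castaneus share of allelic reads was 51.0% in the median proteasome gene, beside 48.9% in the median autosomal gene, and it lay between 40% and 60% for 39 of 46 (84.8%), beside 76.5%. The SD of the share over the mice was 5.43 percentage points in the median proteasome gene, beside 4.41 in the median autosomal gene. A Wilson 95% interval of a single share reached 0.926 to 9.68 points to either side, which covers counting error only, since reads copied from 1 molecule are not independent.

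**Figure D4:**
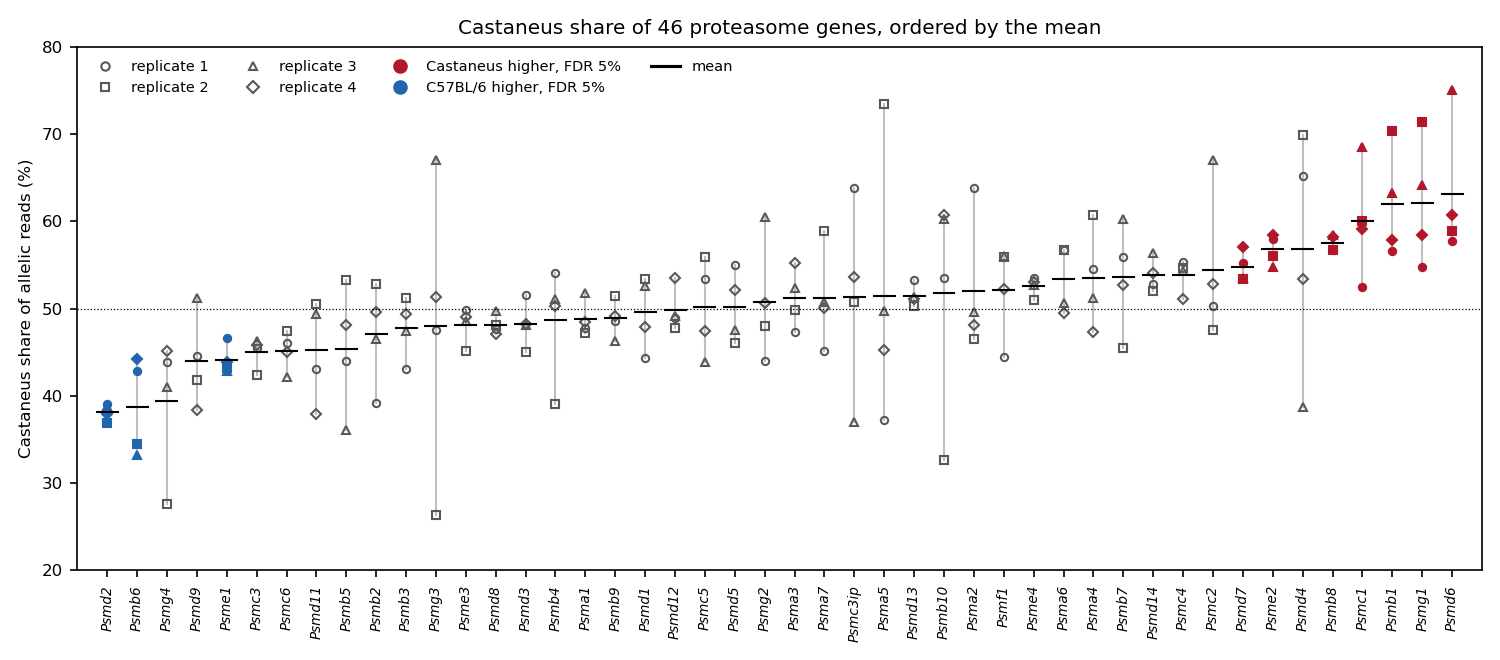
Castaneus share of allelic reads in percent for 46 proteasome genes ordered by the mean, with a point per replicate, a bar at the mean and a dotted line at equal alleles. Filled red points mark the 7 genes higher from Castaneus and filled blue points the 3 higher from C57BL/6, and Psmg3 and Psma5 show the widest scatter.

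Among the catalytic genes, Psmb8 and Psmb6 were allelically unequal. Psmb8 gave 56.7%, 56.8%, 58.5% and 58.2% of its allelic reads from Castaneus in replicates 1 to 4, with a log2 ratio of 0.46 (SE 0.08, adjusted p = 0.00103). The 4 values lie within 2 points of each other and all above 50%. Psmb6 gave 42.8%, 34.5%, 33.3% and 44.3% from Castaneus, with a log2 ratio of -0.64 (SE 0.12, adjusted p = 0.00261). All 4 values are under 50%, with replicates 2 and 3 the lowest. Psmb9 was at 48.6%, 51.5%, 46.3% and 49.2% (log2 ratio -0.04, SE 0.07, adjusted p = 0.728), with a ratio whose sign changed under TMM factors, in DESeq2 and without replicate 3. Psmb5 (45.4% ± 7.25) and Psmb7 (53.6% ± 6.23) did not pass either (SD, n = 4). Psmb10 was at 53.5%, 32.7%, 60.3% and 60.8% on 204 to 288 reads, an SD of 13.2 points. Without replicate 2, Psmb7 was called higher from Castaneus (log2 ratio 0.39, adjusted p = 0.00851), and its adjusted p reached 0.624 over the alternatives.

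Of the 4 structural beta subunits Psmb1 was called, and of the 7 alpha subunits 0, beside 28.1% of all autosomal genes tested. The groups are small and were not tested against each other. Psmb1 (chr17:15475021-15499751) gave 56.6%, 70.4%, 63.3% and 57.9% from Castaneus in replicates 1 to 4, with a log2 ratio of 0.74 (SE 0.12, adjusted p = 0.00095). All 4 values exceed 50%, with replicate 2 the highest. Of the 7 alpha subunits 0 were called by edgeR, 0 had an unadjusted p under 0.05, and DESeq2 called 1, Psma6 (adjusted p = 0.0445). Psma5 had 37.2%, 73.4%, 49.7% and 45.3% from Castaneus, a mean of 51.4% with an SD of 15.6 points, and only Psmg3 varied more, with 47.6%, 26.3%, 67.0% and 51.3% (SD 16.8 points). For both genes the single shares lay on either side of 50% and their Wilson intervals did not all overlap.

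In the 19S particle 4 genes were called, beside 28.1% of all autosomal genes tested. Of the 6 ATPases 1 was higher from Castaneus, and of the 11 other subunits 2 were higher from Castaneus and 1 from C57BL/6. Psmd2 (chr16:20651652-20663414) gave 39.0%, 36.8%, 38.8% and 37.9% from Castaneus, the lowest mean share of all members (log2 ratio -0.67, SE 0.14, adjusted p = 0.00342), although its allelic reads were 8.93% of its reads. Psmd7, a lid subunit that pairs with the deubiquitinase Psmd14, gave 55.2%, 53.4%, 53.5% and 57.02% (log2 ratio 0.30, SE 0.09, adjusted p = 0.0353). Psmc1, an ATPase, gave 52.5%, 60.1%, 68.5% and 59.1% (log2 ratio 0.62, SE 0.17, adjusted p = 0.0206). Psmd6, another lid subunit, gave 57.8%, 58.9%, 75.1% and 60.7% (log2 ratio 0.82, SE 0.23, adjusted p = 0.0211). All 4 values were on 1 side of 50% for each of these genes. In edgeR the call of Psmc1 was lost without replicate 3 or 4 (adjusted p = 0.105 and 0.0775) and that of Psmd6 without replicate 1, 3 or 4 (adjusted p = 0.0501, 0.112 and 0.0689). The call of Psmd7 was lost without replicate 1, 3 or 4 (adjusted p = 0.107, 0.0709 and 0.206) and without the replicate block (adjusted p = 0.0855). The lowest adjusted p over the alternatives was 0.000788 for Psmc1, 0.000774 for Psmd6 and 0.000364 for Psmd7.

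Psmg1, a chaperone of alpha ring assembly (chr16:95979933-95990960), gave 54.7%, 71.4%, 64.1% and 58.4% from Castaneus (log2 ratio 0.75, SE 0.19, adjusted p = 0.0142), and the edgeR call was lost without replicate 3 (adjusted p = 0.0545, with 0.000264 as the lowest of the alternatives). Psmg4 leaned the other way with 43.9%, 27.6%, 41.0% and 45.2%, did not pass in edgeR (adjusted p = 0.0699) and passed in DESeq2 (adjusted p = 0.0353, with up to 0.201 over the alternatives). The ATPase gene Psmc4 (log2 ratio 0.25, adjusted p = 0.0535) and the activator gene Psme4 (log2 ratio 0.17, adjusted p = 0.0743) had all 4 shares above 50% and passed under TMM factors, in DESeq2 and after centring on the chromosome (adjusted p from 0.00102 to 0.203 and from 0.000885 to 0.225 over all alternatives). The ATPase gene Psmc6 (log2 ratio -0.26, adjusted p = 0.0633) passed without replicate 2 (adjusted p = 0.0243) and in DESeq2 (adjusted p = 0.0386), and reached 0.243 over the alternatives.

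The paired activator genes lay close together and leaned to opposite alleles. Psme1 (chr14:55578123-55581529, plus strand) gave 46.6%, 43.2%, 42.9% and 43.9% from Castaneus in replicates 1 to 4 (log2 ratio -0.32, SE 0.06, adjusted p = 0.00153). Psme2 (chr14:55587441-55591113, minus strand) lies 5912 bases further along and gave 57.9%, 56.1%, 54.8% and 58.4% (log2 ratio 0.42, SE 0.08, adjusted p = 0.00363). Psme1 was lower in every mouse, with a difference of -12.6 ± 1.38 points (SD, n = 4), and the ranges do not overlap. The median gene of chromosome 14 was at 49.6%.

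A second pair of neighbours differed in the MHC class II region of chromosome 17. Psmb9 and Psmb8 lie 9957 bases apart, with Tap1 between them, and Psmb9 was lower than Psmb8 in Castaneus share in 4 of 4 mice, with a difference of -8.67 ± 2.85 points (SD, n = 4). Tap1 gave 45.7%, 48.5%, 48.3% and 45.1% from Castaneus, and Tap2, on the far side of Psmb8, 51.4%, 52.1%, 49.8% and 48.3%. Psmb8 thus had the highest share of the 4 adjacent genes in every mouse. For both neighbour differences the same exact permutation test gave p = 0.13, the smallest possible, and an adjusted p of 0.25 over 4 pairs of neighbours. The other pairs, Psmc3ip with Psme3 and Psmb4 with Psmd4, lie 220777 and 145733 bases apart, and their differences changed sign between mice. Psmb9 shares exon bases with Tap1 on the opposite strand, as do Psmb8 with Gm20496, Psmb7 with Nek6 and Psme1 with Emc9 (14 bases). The sources used here do not give whether reads were counted by strand.

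**Figure D5:**
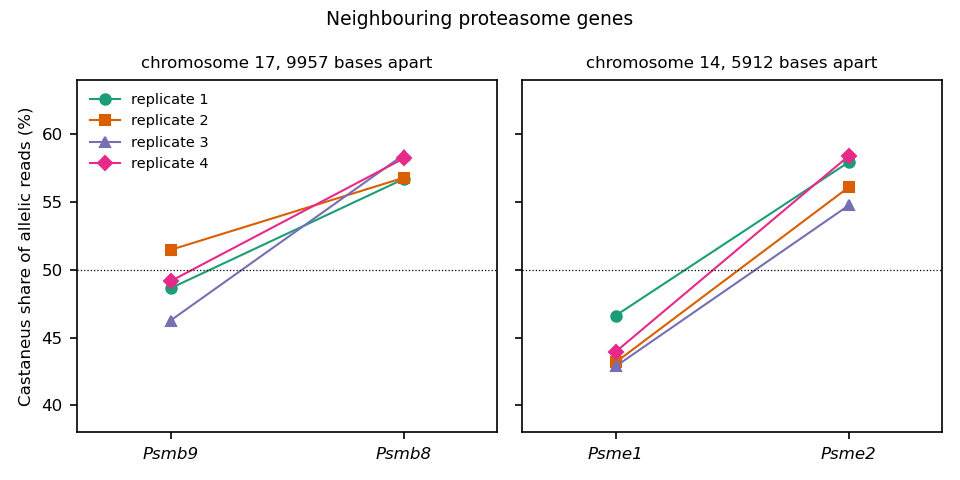
Castaneus share of allelic reads in percent for the neighbouring pairs Psmb9 with Psmb8 and Psme1 with Psme2, with lines that join the values of a replicate and a dotted line at equal alleles. All 8 lines go up, Psmb9 lies between 46.3% and 51.5% and Psme1 between 42.9% and 46.6%, while Psmb8 and Psme2 lie above 54%.

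Of the 25 listed genes outside the proteasome, all were tested for the allelic ratio. By edgeR 7 were higher from C57BL/6 and 0 from Castaneus, beside 15.6% and 12.4% of the 10268 autosomal genes tested. In either direction 28.1% of those autosomal genes were called. At an unadjusted p under 0.05 in edgeR, 3 of the listed genes leaned to Castaneus and 11 to C57BL/6. The share of all autosomal genes at that cutoff was not computed. DESeq2 called 4 of the listed genes higher from Castaneus and 6 from C57BL/6, beside 1930 and 1883 of the 10268 autosomal genes. Vcp, the ATPase that extracts ubiquitinated proteins for the proteasome, gave 30.4%, 33.2%, 32.5% and 29.8% from Castaneus in replicates 1 to 4 (log2 ratio -1.10, SE 0.06, adjusted p = 2.08e-07). Ddi2, the protease that cleaves NRF1, gave 39.4%, 40.6%, 40.2% and 39.0% (log2 ratio -0.57, SE 0.06, adjusted p = 5.29e-05). Both were under 41% in every mouse. B2m (adjusted p = 0.00132), Nlrc5 (0.00206) and Nfe2l2 (0.00589), with log2 ratios of -0.13, -0.24 and -0.33, lost their calls without the replicate block (adjusted p = 0.251, 0.163 and 0.0755). Tap1 was at the threshold (log2 ratio -0.16, adjusted p = 0.0498) and lost its call in 8 of 11 alternatives, with an adjusted p of up to 0.345.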

How the data were processed

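Per the file headers, the authors deposited counts of reads per gene for each allele and replicate, not normalized, and RPKM values of both alleles together. The submitters' processing notes name STAR 2.7.1a, featureCounts and mm10, and the libraries were stranded total RNA with ribosomal RNA removed, per the labels' protocols. The sources used here do not give how reads were assigned to alleles, how copies and reads that match several genes were treated, or whether reads were counted by strand. The replicates are labelled as biological, with 1 mouse each.

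Castaneus over C57BL/6 was tested with edgeR 4.0.16 (glmQLFit and glmQLFTest, two-sided, R 4.3.3) and a block for the replicate, because both alleles were read in the same mouse. The library size was the autosomal total of the allele. Genes needed a mean of 20 allelic reads and 1 RPKM, and p-values were adjusted by Benjamini-Hochberg over 10268 autosomal genes (FDR 5%). Tested on simulated data with 200 of 10268 genes changed, the fit recovered 68% of 2-fold and 34% of 1.5-fold changes and called 0.0298% of unchanged genes. In the real data 28.1% of genes were called, so these rates are not those of the real data. Ratios of RPKM were log2 values per replicate, with no pseudocount, and went through an exact sign-flip permutation test. Alternatives were TMM factors, DESeq2 1.42.0, no block, other filters, centring on the chromosome median, pseudocounts of 1 and 0.1, rescaled RPKM, and leaving out each replicate. Gene lengths and positions came from GENCODE M21 for GRCm38, which held 49326 of the files' gene IDs. Python 3.11.15, numpy 2.4.6, pandas 2.3.3, scipy 1.17.1 and matplotlib 3.10.9 were used.

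The symbol rule matched 54 genes, of which 4 were pseudogenes and 1 lay on the X chromosome (Psmd10, 3.10 ± 0.574 RPKM, SD, n = 4). Psmb11, Psma8 and Psme2b did not pass the filter. Values were given per replicate for the catalytic genes, the activators, the highest and lowest gene of each group, every called gene, and the 2 genes with the largest spread of share or level. Of 26 listed pathway genes, Paaf1 was not matched. The values of 1 listed gene are not reported here. Members and lists were chosen with earlier results of these data known.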

Additional observations from a re-analysis of the deposited data

Results flagged for a closer look

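Of 95 sets of 4 values tested, 3 had a replicate far from the others, and chance flags about 1 in 20. A set was the RPKM or the Castaneus share of a proteasome gene, or the RPKM ratio of a catalytic pair. Psmb10 had 7.88 RPKM in replicate 1, where the other replicates had 5.07 to 5.41 RPKM. The other immuno subunits, Psmb8 and Psmb9, were also highest in replicate 1, as were the summed B cell markers, and the part of these markers was not tested. Psmd6 gave 75.1% of its allelic reads from Castaneus in replicate 3, where the others gave 57.8% to 60.7%. Psmf1 had 6.79 RPKM in replicate 3, where the others had 6.02 to 6.11 RPKM.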

How the results depend on the processing

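Of 235 recomputed values for 23 results, 209 were classed as the same. For allelic ratios this meant the same direction and side of the threshold, and for RPKM ratios the same direction. The median level and share had to move by less than the replicate spread. Counts of called genes were classed by the size of their change alone, so some of those classed as the same differed clearly. An example is 918 autosomal genes higher from Castaneus without replicate 1, beside 1278. Of the other values, 10 moved, 10 lost a call, 1 gained a call and 5 changed sign, none of them past the threshold. These were the Castaneus to C57BL/6 log2 ratio of Psmb9 (-0.04), which was 0.0073 with TMM factors, 0.0017 in DESeq2 and -0.093 to 0.0097 with 1 replicate left out (above 0 without replicate 3), and that of Psmb10 (0.13), which was -0.042 to 0.50 with 1 replicate left out (below 0 without replicate 3 or 4). Of allelic ratios, this tally holds only those of the called genes and of Psmb5, Psmb7, Psmb9 and Psmb10. Outside it, Psmc4, Psme4, Psmc6, Psmc3, Psmg4, Psmd14 and Psma6 gained a call under at least 1 alternative, and the ratios of several uncalled genes changed sign. DESeq2 called 1930 autosomal genes higher from Castaneus and 1883 from C57BL/6, beside 1278 and 1605 in edgeR. Of proteasome genes it called 11 higher from Castaneus and 6 from C57BL/6, beside 7 and 3. Leaving out 1 replicate gave 913 to 1347 autosomal genes higher from Castaneus and 1034 to 1728 from C57BL/6, beside 1605, with 1034 without replicate 4. It gave 3 to 9 and 3 to 4 proteasome genes in these directions. Without the replicate block, 962 and 1138 autosomal and 6 and 3 proteasome genes were called, and of the proteasome genes only Psmd7 lost its call. The median proteasome gene was at 55.7 after each sample was rescaled to the same sum (as for TPM), beside 19 RPKM. Its Castaneus share of 51.0% ranged from 50.3% to 51.3% when 1 replicate was left out. The causes were not tested. The log2 ratio over leave-one-out fits was 0.51 to 0.54 for Psmb8 over Psmb5, -0.51 to -0.36 for Psmb9 over Psmb6 and -1.14 to -0.91 for Psmb10 over Psmb7. With 4 mice of 1 group, only differences that are large beside the spread between mice can pass, and low allelic coverage limits Psmb10, Psmg3, Psmd11 and Psmc3ip most. The RPKM scale depends on the exon length, which was not resolved for Psmb8, Psmb1, Psma2, Psmc6 and Psmd6, and retained introns enter it. Mapping of reads from the Castaneus allele to the C57BL/6 reference was not tested.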
